A study of Mus musculus with 22 samples.

Results

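Livers of Cyp2c70 knockout mice fed ursodeoxycholic acid (UDCA) were compared with livers of Cyp2c70 knockout mice fed regular chow. The comparison sets 6 arrays (KO_UDCA) against 5 arrays (KO_chow), which are 11 of the 22 arrays in the series, and it runs over all 24011 genes that remained from the 24015 rows with 1 gene symbol once repeated symbols had been reduced to a single row. All mice were female, 12 weeks old and of C57BL/6J background. UDCA made up 0.1% of the chow for 7 weeks, starting at an age of 5 weeks. The wild-type mice of the same sex, age and background, 5 on chow (WT_chow) and 6 on the UDCA chow (WT_UDCA), serve here only to show where the knockouts differ. The labels give the knockout as a genotype and do not say which part of Cyp2c70 was removed or how the allele was made. Total RNA of whole liver was hybridised to Affymetrix MoGene 2.0 ST arrays, with 1 array for each mouse, and levels are given as log2 of the deposited intensity.

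Bile acids are made from cholesterol in hepatocytes, secreted into bile, taken back up in the ileum and returned to the liver. Mouse hepatocytes use the cytochrome P450 enzyme encoded by Cyp2c70 to turn chenodeoxycholic acid and UDCA into hydrophilic muricholic acids, an enzyme activity that human liver lacks. Without it the bile acid pool is more hydrophobic and holds more of the acids that damage the epithelium of bile ducts. UDCA is itself a hydrophilic bile acid and is used as a drug in cholestatic liver disease. Injured bile ducts multiply into small ductules, attract macrophages and activate the fibroblasts that lay down collagen. The comparison asks which of these features of gene expression differ when the knockout is fed UDCA.

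The chow-fed knockouts were not alike, and this touches every result below. On the first principal component of the 11 knockout arrays, which held 35.7% of their variance, KO_chow replicates 2 and 5 lay at 41.8 and 43.7, replicate 3 at 21.4, and replicates 1 and 4 at 5.20 and 2.20, whereas the KO_UDCA mice lay between -24.0 and -14.5. KO_chow replicates 2 and 5 therefore stood farthest from the treated mice. The gene counts, the list counts and the calls of named genes on UDCA in the knockout were also computed without both. The SD shares, the non-overlap counts, the motif shares and the interaction values of single genes are given with all mice only. The SD was larger in KO_chow than in KO_UDCA for 56.4% of all genes, for 77.9% of the genes called higher and for 76.3% of those called lower. The array signal for the knocked-out gene was similar on both diets. It remained bright, at 1.78-fold below WT_chow in KO_chow and 1.97-fold below in KO_UDCA, and the source of this signal was not tested. Cyp2c70 measured between 10.5 and 10.8 in KO_chow and between 10.3 and 10.7 in KO_UDCA, below the lowest WT_chow value of 11.3, and the diet difference was -0.15 (SE 0.09, limma adjusted p = 0.372). The hepatocyte gene Alb lay between 12.96 and 13.04 in all 11 knockout livers. In whole liver, fewer cells of a type and less RNA per cell cannot be told apart.

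UDCA feeding changed the expression of many genes in the knockout. At a limma adjusted p below 0.05, 2701 of 24011 genes were called, 1208 higher and 1493 lower, which is 11.2% of all genes (5.03% higher and 6.22% lower). Falls were the larger changes, with 201 genes at least 2-fold lower and 33 at least 2-fold higher. The levels of the 2 groups did not overlap in any array for 1414 genes, 5.89% of all (2.62% higher and 3.27% lower), and 1234 of these were also called. Calls were more frequent among bright genes, at 22.2% of the 6003 brightest genes and 2.33% of the 6003 dimmest. Without KO_chow replicates 2 and 5 the count was 673 of 24011, 170 higher and 503 lower, of which 655 were also among the 2701. List counts without these mice, given below, stand beside these smaller totals. A smaller list count did not always go with a smaller change. The cell junction median was -0.155 with all mice and -0.15 without these, and that of fatty acid oxidation 0.43 and 0.185. A fit to only the knockout arrays gave 1454. Leaving out KO_chow replicate 2 alone gave 1652 genes and leaving out replicate 5 alone gave 1632.

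The same diet gave 0 called genes in wild-type mice by limma, with 1338 at an unadjusted p below 0.05. The test of the difference between genotypes, the interaction of diet and genotype, called 642 genes (2.67% of all), 144 (0.6%) with a more positive and 498 (2.07%) with a more negative effect of UDCA in the knockout. Between KO_UDCA and WT_chow 6 genes were called (0.025%), 1 higher (0.00416%) and 5 lower (0.0208%). KO_chow differed from WT_chow in 3295 (13.7%), 1847 higher (7.69%) and 1448 lower (6.03%). Both of these share a group with the comparison on UDCA, so their values are only set beside it.

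**Figure D1:**
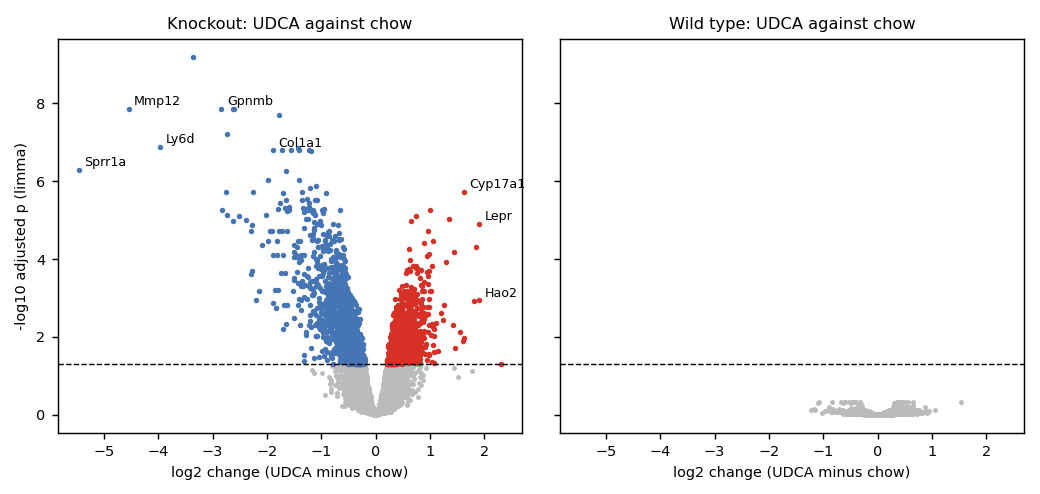
Each point is 1 of 24011 genes, with the log2 change from chow to UDCA on the x axis and -log10 of the limma adjusted p on the y axis, in knockout mice (left) and wild-type mice (right). Blue and red points are the 1493 lower and 1208 higher genes, and the dashed line marks an adjusted p of 0.05, which 0 genes pass in wild type.

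Genes that are typical of squamous or injured epithelium were lower on UDCA, and one of them, Sprr1a, had the largest fall among genes whose groups did not overlap. Sprr1a, a small proline-rich protein of the cornified envelope, measured 7.68, 11.5, 9.44, 7.42 and 11.4 in the KO_chow mice and between 3.76 and 4.50 (median 3.94) in the KO_UDCA mice. Every chow-fed knockout was far above every UDCA-fed one, with replicates 2 and 5 the highest. The change was -5.46 (SE 0.52), or 44.0-fold lower, with a limma adjusted p of 5.07e-07. Ly6d, a surface protein of stratified epithelia, measured 8.76, 11.2, 9.54, 9.02 and 11.4 in KO_chow and from 5.63 to 6.44 (median 6.06) in KO_UDCA, a 15.6-fold fall. The membrane protein gene Emp1 fell 4.76-fold. The chow-fed knockouts lay at 7.23 to 9.10 for it and the UDCA-fed ones at 5.30 to 6.09.

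Of the 17 measured genes of the squamous and injury list, 13 fell and 0 rose, and the median change was -1.10 against 0.03 over all genes. Without KO_chow replicates 2 and 5, 8 fell. In wild-type mice Sprr1a changed by 0.35 and Ly6d by -0.02 under UDCA, neither of them called, and the interaction was called for both. Of the genes of annexins and S100 proteins, calcium-binding proteins of membranes and cytoskeleton, 11 of 19 fell and 1 rose (9 and 0 without KO_chow replicates 2 and 5). Anxa2, which links membranes to actin, measured 7.43, 9.76, 8.10, 7.60 and 9.72 in KO_chow and from 5.82 to 6.30 (median 6.02) in KO_UDCA. The groups were apart for Anxa2 in every mouse, and it fell 5.70-fold (limma adjusted p = 7.63e-06).

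The promoter sequences of 3 strongly lowered genes, Sprr1a, Mmp13 and Anxa2, are shown for their matches to the motif of the inducible transcription factor AP-1, whose subunits are on the list of immediate early genes, and that of Cyp8b1, a gene that rose, is shown beside them. Each is the 250 bases before the start site, from the RefSeq table of mouse build GRCm38.p6, read on the coding strand. Capitals mark the letters TGANTCA, the AP-1 motif, which reads the same on both strands and did not overlap the other motifs searched in these 4 sequences. Sprr1a lies at chr3:92485882-92486131 on the minus strand, Mmp13 at chr9:7272264-7272513 on the plus strand, Anxa2 at chr9:69453433-69453682 on the plus strand and Cyp8b1 at chr9:121916306-121916555 on the minus strand.
Sprr1a: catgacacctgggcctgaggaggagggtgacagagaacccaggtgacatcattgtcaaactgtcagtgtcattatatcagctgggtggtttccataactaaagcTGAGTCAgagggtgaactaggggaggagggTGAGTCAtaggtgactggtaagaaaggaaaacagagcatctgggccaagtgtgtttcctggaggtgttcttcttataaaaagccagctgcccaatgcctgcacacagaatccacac
Mmp13: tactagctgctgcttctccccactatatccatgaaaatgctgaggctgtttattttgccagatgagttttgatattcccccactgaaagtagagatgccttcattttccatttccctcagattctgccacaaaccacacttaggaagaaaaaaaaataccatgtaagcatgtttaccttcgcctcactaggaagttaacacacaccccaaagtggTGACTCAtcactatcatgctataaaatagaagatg
Anxa2: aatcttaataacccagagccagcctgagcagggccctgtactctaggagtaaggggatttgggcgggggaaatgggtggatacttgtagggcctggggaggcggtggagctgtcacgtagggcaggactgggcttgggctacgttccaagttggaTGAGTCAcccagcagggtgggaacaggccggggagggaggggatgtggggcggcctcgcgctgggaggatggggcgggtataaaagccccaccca
Cyp8b1: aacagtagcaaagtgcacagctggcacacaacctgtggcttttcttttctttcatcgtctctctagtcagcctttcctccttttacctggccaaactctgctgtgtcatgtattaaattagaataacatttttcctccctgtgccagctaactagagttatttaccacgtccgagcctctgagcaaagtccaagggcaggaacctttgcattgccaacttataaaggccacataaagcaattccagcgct
The Sprr1a sequence holds 2 matches, Mmp13 and Anxa2 hold 1 each, and Cyp8b1 holds 0 in this stretch. Of the 16 largest falls, 13 had a promoter window in the table, which goes somewhat past the start site, and 7 of these (53.8%) held TGANTCA. Among the 13 of the 16 largest rises with a window, 0 did. The share was 8.42% of the 18112 tested genes with a window, 11.4% of 1161 genes called lower and 7.00% of 943 called higher. Among the 7 falls with a match, that of Gpnmb lay past the start site and that of Slc10a2 read TGATTCA. Mmp12 has 2 windows, of which window 1 held 0 matches and window 2 held 1, and a match in any window of a gene was counted. The windows of Saa1, Saa2, Lcn2, Tspan8, Tnc and Elovl7 held no match. The other motifs searched, on both strands, were also more frequent in the windows of the 13 largest falls than over all tested genes, at 38.5% against 11.6% for TTGCNNAA (C/EBP), 30.8% against 16.6% for AGGTCA (a nuclear receptor motif) and 38.5% against 14.1% for TATAAA (the TATA box). These genes were chosen by their measured falls, and the shares are descriptions of few promoters.

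Genes that mark cholangiocytes, the epithelial cells of bile ducts, were lower in the UDCA-fed knockout. Of 17 measured markers 15 fell and 0 rose, with a median change of -1.08, and 11 fell without KO_chow replicates 2 and 5. Tspan8, a tetraspanin of ductal and gut epithelium, measured 7.35, 8.52, 6.88, 7.23 and 8.06 in KO_chow and from 4.38 to 5.51 (median 4.84) in KO_UDCA. It fell 6.68-fold with no overlap between groups (limma adjusted p = 6.01e-08). Muc1, a mucin of the apical surface, fell 2.61-fold, and Cd24a, a surface protein of ductal and progenitor cells, fell 2.41-fold. For Cd24a the KO_chow values were 7.33, 7.37, 6.56, 7.23 and 7.20, with replicate 3 below the others.

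Keratin filaments give epithelial cells their mechanical strength, and Krt7 and Krt19 are the ductal pair whereas hepatocytes hold only Krt8 and Krt18. Krt8 measured 9.42, 11.1, 10.4, 9.38 and 11.2 in KO_chow and between 7.97 and 8.60 (median 8.29) in KO_UDCA, a 4.07-fold fall, and Krt18 fell 3.70-fold. Krt19 measured 5.28, 5.15, 5.16, 5.05 and 5.22 in KO_chow and from 4.26 to 4.84 in KO_UDCA, a smaller fall of 1.60-fold in which the chow-fed mice were close together. Krt7 fell 1.34-fold with overlapping groups (limma adjusted p = 0.031), and with KO_chow replicates 2 and 5 left out its adjusted p was 0.406. The call was also lost on leaving out any 1 of KO_chow replicates 1, 2 and 5 and KO_UDCA replicates 1, 4, 5 and 6 (adjusted p up to 0.111). Of the 6 keratins on the list 4 fell and 0 rose.

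Of 17 cell junction genes 6 fell and 0 rose, and 2 fell without KO_chow replicates 2 and 5. Cdh1, the E-cadherin that holds epithelial cells together, fell 2.38-fold and Cldn4, a claudin of tight junctions, 2.32-fold. For Cldn4 the KO_chow values were 4.94, 6.68, 5.19, 4.80 and 6.01 against 3.94 to 4.61 in KO_UDCA, and the adjusted p was 0.0624 without replicates 2 and 5. Among genes of the Notch and YAP pathways, which steer bile duct formation, 9 of 20 fell and 0 rose (3 without these mice). Ankrd1, a target of YAP, measured 6.07, 6.45, 5.73, 6.08 and 6.14 in KO_chow and between 4.84 and 5.12 in KO_UDCA, and fell 2.12-fold. The matricellular genes Ccn1 and Ccn2, also YAP targets, fell 2.58-fold and 1.59-fold. With KO_chow replicates 2 and 5 left out, Ccn2 had an adjusted p of 0.284, and its call was also lost without each of KO_chow replicates 2 and 5 and KO_UDCA replicates 2, 3 and 6 in turn (adjusted p up to 0.0775).

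**Figure D2:**
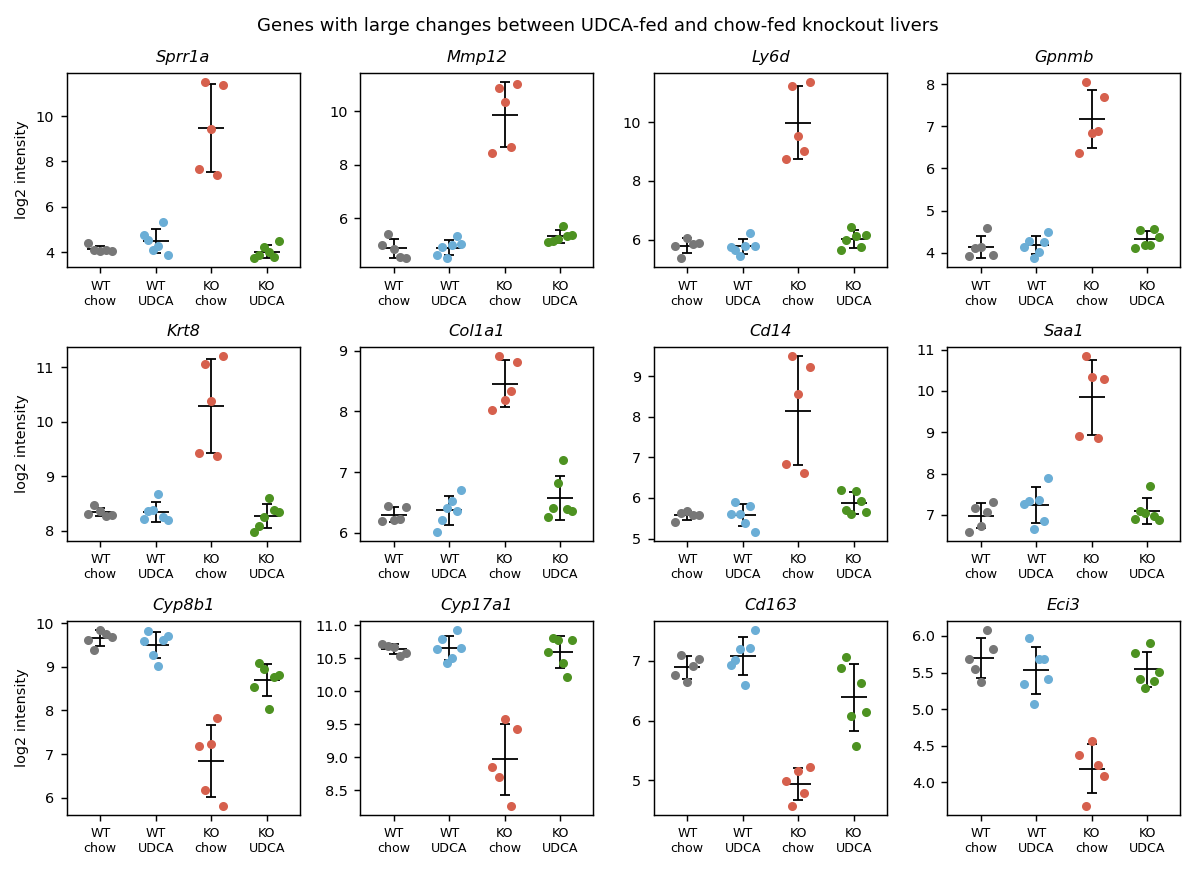
The log2 intensity of 12 genes is shown for each mouse (points) in the 4 groups, with the group mean and SD (horizontal line and bars). In the upper 2 rows the KO_chow mice lie above all KO_UDCA mice, for example 7.42 or more against 4.50 or less for Sprr1a, and in the lowest row they lie below, for example 7.83 or less against 8.04 or more for Cyp8b1.

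Scar matrix genes fell as well. Of 20 collagen genes 13 fell and 0 rose, at a median change of -0.58, and 11 fell without KO_chow replicates 2 and 5. Col1a1, a chain of the main fibrillar collagen, measured 8.02, 8.92, 8.20, 8.34 and 8.82 in KO_chow and between 6.26 and 7.21 (median 6.41) in KO_UDCA, a 3.69-fold fall (SE 0.17 on a log2 change of -1.88, limma adjusted p = 1.61e-07). The mice on chow all lay above the treated mice in this gene, with replicates 2 and 5 the highest. Col3a1, its partner in early scar, fell 3.13-fold, and the microfibrillar collagen gene Col6a3 fell 2.66-fold. In wild-type mice Col1a1 and Col3a1 changed by 0.07 and -0.06 under UDCA.

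Matrix proteases and their inhibitors followed, with 8 of 17 lower and 0 higher (6 lower without KO_chow replicates 2 and 5). Mmp12, the elastase of macrophages, measured 8.46, 10.9, 10.4, 8.66 and 11.0 in KO_chow and 5.10 to 5.73 (median 5.30) in KO_UDCA. It had the second largest fall among genes whose groups were apart, at 23.3-fold (limma adjusted p = 1.38e-08). The collagenase gene Mmp13 fell 6.69-fold, Mmp7, a protease secreted by ductal epithelium, 3.49-fold, and Timp1, the inhibitor of these proteases, 3.94-fold.

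Other matrix genes were lower in 12 of 20, with 0 higher (7 lower without KO_chow replicates 2 and 5). Tnc, a glycoprotein of wounds, measured 5.48, 7.85, 7.11, 5.65 and 7.36 in KO_chow and 3.96 to 4.56 in KO_UDCA, and fell 5.19-fold. Thbs1, which can release active TGF-beta, fell 4.90-fold from a similarly spread set of chow values of 6.28, 7.67, 7.57, 5.52 and 7.99. Genes of TGF-beta and PDGF signalling, the growth factors that activate fibroblasts, had 18 of 22 members lower and 1 higher (12 lower and 0 higher without KO_chow replicates 2 and 5), with a median of -0.62. The ligand gene Tgfb2 fell 2.11-fold and Itgb8, an integrin subunit that activates latent TGF-beta, 1.97-fold. Tgfb2 had an adjusted p of 0.0511 in the fit to only the knockout arrays.

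Markers of the cells that make this matrix were divided. Of 14 markers of stellate cells, the vitamin A-storing pericytes of the sinusoid, 3 fell and 3 rose (3 and 2 without KO_chow replicates 2 and 5). The lower ones were Cygb, a globin of stellate cells (1.77-fold), the growth factor gene Hgf (1.75-fold) and the PDGF receptor gene Pdgfrb (1.68-fold). Among the higher ones was the collectin gene Colec10 (1.67-fold), with KO_chow values of 6.54, 6.65, 7.17, 6.90 and 6.88 and KO_UDCA values from 7.13 to 7.71. Acta2, the smooth muscle actin of activated stellate cells, measured 7.25, 7.85, 7.84, 7.13 and 8.32 in KO_chow and from 6.96 to 7.87 in KO_UDCA, and the change of -0.43 (SE 0.18) did not pass the test (limma adjusted p = 0.133). In 2 of 30 alternative settings Acta2 was called lower (lowest limma adjusted p = 0.0322). Of 12 portal fibroblast markers 4 fell and 0 rose (2 fell without KO_chow replicates 2 and 5), with Dpt, a small matrix protein, 2.02-fold and the surface sialomucin Cd34 1.81-fold lower.

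Macrophage genes went in opposite directions by type. Of 12 markers of monocyte-derived macrophages 11 fell and 0 rose, with a median of -1.16, and 10 fell without KO_chow replicates 2 and 5. Gpnmb, a glycoprotein of lipid-laden and scar-associated macrophages, measured 6.36, 8.05, 6.84, 6.89 and 7.70 in KO_chow and from 4.12 to 4.58 (median 4.28) in KO_UDCA, a 7.14-fold fall. The endotoxin co-receptor gene Cd14 measured 6.85, 9.50, 8.56, 6.62 and 9.23 in KO_chow and 5.60 to 6.19 in KO_UDCA, a 4.84-fold fall. Lgals3, a galectin of macrophages that is also on the squamous and injury list, fell 4.44-fold.

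Kupffer cells are macrophages that reside in the sinusoids. Of their 12 markers 5 rose and 1 fell (4 and 1 without KO_chow replicates 2 and 5). Cd163, the haemoglobin scavenger receptor, measured 5.00, 4.57, 5.15, 4.79 and 5.22 in KO_chow and between 5.57 and 7.05 (median 6.39) in KO_UDCA. It rose 2.73-fold with no overlap (limma adjusted p = 6.66e-05), and the treated mice varied more than the chow-fed ones. Timd4, the receptor by which resident macrophages take up dying cells, rose 1.69-fold. The marker that fell was the complement gene C6 (1.80-fold), which is also made by hepatocytes.

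Other leukocyte lists showed fewer calls. Neutrophil markers fell in 6 of 13, among them S100a8 (1.87-fold, adjusted p = 0.163 without KO_chow replicates 2 and 5), and in 0 of 13 without these mice. Genes of antigen presentation by MHC class II fell in 5 of 10, with H2-Aa 1.83-fold and Cd74, the invariant chain, 1.64-fold lower. Without KO_chow replicates 2 and 5, 1 of 10 passed, H2-Aa, but the changes stayed about as large, with a list median of -0.45 against -0.49 with all mice and a change of -0.65 for Cd74 (adjusted p = 0.147) against -0.72. Of the T and NK cell markers 1 of 14 rose and 1 fell, 0 of 8 markers of B or plasma cells passed, and 1 of 10 dendritic cell markers fell, which is near or below the share over all genes, and none of these lists had a call without KO_chow replicates 2 and 5. Endothelial markers rose in 2 of 13 and hepatocyte markers passed in 1 of 12, and neither list had a call without KO_chow replicates 2 and 5.

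Signals that draw leukocytes fell with these markers. Of 29 cytokine and chemokine genes 17 fell and 1 rose, at a median of -0.58, and 8 fell and 0 rose without KO_chow replicates 2 and 5. Ccl2, the monocyte attractant, measured 5.37, 7.66, 6.90, 4.85 and 8.41 in KO_chow and 4.32 to 4.63 (median 4.42) in KO_UDCA, a 4.57-fold fall. Its chow values spread over more than 3 log2 units and replicate 4 was close to the treated mice. Cxcl14 fell 3.87-fold and the neutrophil attractant Cxcl1 2.72-fold. The gene that rose was Cxcl13, a chemokine for B cells, at 2.38-fold, with KO_chow values of 5.69, 5.09, 5.80, 5.56 and 5.16 and KO_UDCA values from 6.12 to 7.91 (adjusted p = 0.053 without KO_chow replicates 2 and 5).

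Acute phase proteins are secreted by hepatocytes under inflammatory cytokines. Of 18 such genes 8 fell and 0 rose (5 without KO_chow replicates 2 and 5). Saa1, a serum amyloid A gene, measured 8.92, 10.9, 10.3, 8.85 and 10.3 in KO_chow and 6.87 to 7.71 (median 7.01) in KO_UDCA, a 6.74-fold fall, and its close relative Saa2 fell 7.05-fold. These genes are near-identical in sequence, so that their signals may not be separate. Lcn2, an iron-sequestering lipocalin, measured 9.92, 12.1, 11.3, 9.92 and 11.8 in KO_chow and 8.10 to 8.70 in KO_UDCA, a 6.16-fold fall. Interferon response genes passed in 0 of 15, and complement and coagulation genes in 3 higher and 4 lower of 20 (1 and 3 without KO_chow replicates 2 and 5), with a median that was 0.04 as deposited and -0.01 after quantile normalization.

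Immediate early genes, which switch on within minutes of stress or growth signals and include the AP-1 subunits of the Fos and Jun families, fell in 11 of 16 with 0 higher and a median of -0.87. Their level in the chow-fed knockouts was uneven. The mean of the list, as a difference from the WT_chow mean, was 0.45, 1.22, 1.28, 0.05 and 1.60 in the 5 KO_chow mice and between -0.14 and 0.26 in the KO_UDCA mice. Replicate 4 lay within the range of the treated mice, and without replicates 2 and 5 the list had 5 genes lower. Fosl1, an AP-1 subunit, measured 4.44, 6.78, 6.68, 3.79 and 6.73 in KO_chow and 3.74 to 4.47 in KO_UDCA, a 3.25-fold fall whose groups overlapped and whose adjusted p was 0.192 without replicates 2 and 5. Of the other Fos and Jun genes, Jun (-0.37, adjusted p = 0.207) and Junb (-0.38, adjusted p = 0.169) did not pass. Without replicates 2 and 5, Fosl2 was the single Fos or Jun gene on the list that passed (-0.58, adjusted p = 0.022), and these 3 genes were chosen for mention after their values were seen. The survival gene Ier3 fell 3.20-fold, the zinc finger factor gene Klf6 3.18-fold and the stress factor gene Atf3 2.68-fold, and each passed without these mice as well.

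Of 17 genes of the oxidative stress response driven by NRF2, 8 fell and 1 rose (2 and 1 without KO_chow replicates 2 and 5), with Gclc, the rate-limiting enzyme of glutathione synthesis, 2.15-fold lower. Of 17 genes of endoplasmic reticulum stress, 6 fell and 1 rose (3 and 1 without KO_chow replicates 2 and 5). Creld2, a chaperone of that compartment, measured 8.11, 8.41, 8.29, 8.71 and 8.26 in KO_chow and 7.31 to 7.56 (median 7.35) in KO_UDCA, a 1.96-fold fall in which replicates 2 and 5 did not stand out. Targets of p53 fell in 4 of 10, and in 0 without replicates 2 and 5.

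Cell cycle genes fell in 9 of 19 with 0 higher (3 without KO_chow replicates 2 and 5). Mcm6, a subunit of the replication helicase, measured 6.30, 7.40, 6.38, 6.22 and 7.11 in KO_chow and 5.47 to 5.83 in KO_UDCA, a 2.09-fold fall. Mki67, present in dividing cells, fell 1.67-fold with overlapping groups (adjusted p = 0.0568 in the fit to only the knockout arrays). Cytoskeletal genes fell in 11 of 19 (6 without KO_chow replicates 2 and 5), led by Tagln2, an actin-binding protein, at 3.11-fold. For Tagln2 the KO_UDCA mice lay within 7.33 to 7.49, and the KO_chow mice at 8.43, 9.92, 8.83, 8.17 and 9.75. Of 18 lysosomal and phagocytic genes 5 fell and 1 rose, against 1 and 0 without KO_chow replicates 2 and 5.

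Bile acid genes moved in both directions. Of 16 synthesis genes 4 rose and 1 fell (1 and 1 without KO_chow replicates 2 and 5). Cyp8b1, the 12-alpha-hydroxylase that directs synthesis to cholic acid, measured 7.19, 6.18, 7.22, 7.83 and 5.81 in KO_chow and from 8.04 to 9.09 (median 8.79) in KO_UDCA, a 3.61-fold rise (limma adjusted p = 5.03e-05). All treated mice stood above all chow-fed ones and below all WT_chow mice, whose lowest value was 9.39. Its difference from WT_chow of -0.96 did not pass the test (adjusted p = 0.396).

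Cyp7a1, the rate-limiting enzyme of the classic pathway, measured 8.52, 8.99, 9.43, 9.67 and 6.21 in KO_chow and 9.46 to 10.6 in KO_UDCA. It rose 2.74-fold with overlapping groups, KO_chow replicate 5 far below the rest, and an adjusted p of 0.126 without replicates 2 and 5. In the fit to only the knockout arrays the call for Cyp7a1 was lost as well. The gene that fell was Ch25h, which makes 25-hydroxycholesterol and is inducible in macrophages, at 3.10-fold. Its KO_chow values were 4.31, 6.10, 6.27, 4.22 and 6.83, and the KO_UDCA mice lay within 3.87 to 4.02.

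Among 17 bile acid and sterol transporters 6 rose and 5 fell (2 and 3 without KO_chow replicates 2 and 5). Slc10a1, the sodium-dependent uptake carrier of the basolateral membrane, measured 10.8, 10.5, 10.8, 10.9 and 10.3 in KO_chow and 11.1 to 11.3 in KO_UDCA, a 1.47-fold rise. Slco1a1, a sodium-independent carrier, rose 3.07-fold with overlapping groups (adjusted p = 0.2 without replicates 2 and 5). Slc10a2, the ileal uptake carrier that cholangiocytes also hold, measured 7.48, 7.60, 8.05, 6.94 and 8.47 in KO_chow and 4.82 to 5.45 (median 5.06) in KO_UDCA. It fell 6.17-fold (limma adjusted p = 1.38e-08), more than any of the other transporters named here.

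Slc51b, a subunit of the basolateral exporter that is induced under bile acid load, measured 5.39, 6.11, 5.88, 5.52 and 6.27 in KO_chow and 3.30 to 4.84 in KO_UDCA, a 3.77-fold fall. In wild-type mice it changed by -0.90 under UDCA (adjusted p = 0.647), and the interaction of -1.02 was not called (adjusted p = 0.121). The multidrug exporter gene Abcb1a fell 2.02-fold. Abcb11, the bile salt export pump of the canaliculus, measured 11.3, 10.6, 11.2, 11.0 and 10.8 in KO_chow and 10.7 to 11.1 in KO_UDCA, and its change of -0.07 (SE 0.11) did not pass (adjusted p = 0.766).

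Of 13 bile acid receptor and signalling genes 5 rose and 2 fell (1 and 1 without KO_chow replicates 2 and 5). Nr1i3, the constitutive androstane receptor, rose 1.87-fold, but its adjusted p was 0.323 without KO_chow replicates 2 and 5 and up to 0.08 without either of them alone. Klb, the co-receptor for the ileal hormone that represses bile acid synthesis, measured 8.97, 8.32, 8.40, 8.75 and 7.80 in KO_chow and 9.05 to 9.22 in KO_UDCA, a 1.59-fold rise. Nr0b2, the repressor induced by the bile acid receptor FXR, lay between 6.96 and 7.69 in KO_chow and between 6.61 and 7.14 in KO_UDCA, with a change of -0.38 (SE 0.22, adjusted p = 0.299).

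Sulfotransferases make bile acids and steroids more soluble. Of 18 genes of this list 4 rose and 0 fell, and 1 rose without KO_chow replicates 2 and 5. Sult3a1 measured 6.08, 6.68, 7.90, 6.89 and 6.26 in KO_chow and 7.21 to 9.39 (median 8.74) in KO_UDCA, a 3.51-fold rise. Sult2a1, the bile acid sulfotransferase, measured 2.80, 2.35, 4.82, 2.64 and 2.45 in KO_chow and 3.90 to 5.07 (median 4.57) in KO_UDCA. It rose 2.94-fold from a very dim level, with an adjusted p of 0.169 without replicates 2 and 5 and a lost call when 16 was added to the intensity before the log. Of the 14 other Cyp2c genes 5 rose and 0 fell (1 without replicates 2 and 5), with Cyp2c69 1.96-fold higher. Cyp2c genes resemble one another in sequence, and a probe set may read more than 1 of them.

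Hepatocyte metabolism genes mostly rose where they passed. Fatty acid oxidation genes rose in 14 of 23 with 0 lower and a median of 0.43, but in 2 of 23 without KO_chow replicates 2 and 5. The mean of this list, as a difference from the WT_chow mean, was -0.34, -0.97, -0.50, -0.12 and -0.89 in the 5 KO_chow mice and between -0.14 and 0.15 in the KO_UDCA mice. Replicates 2 and 5 were the lowest and replicate 4 lay within the treated range. Eci3, an isomerase for unsaturated fatty acids, measured 4.37, 3.68, 4.57, 4.24 and 4.09 in KO_chow and 5.29 to 5.91 in KO_UDCA, a 2.56-fold rise without overlap. The thioesterase gene Acot3 rose 2.37-fold with overlapping groups (adjusted p = 0.106 without replicates 2 and 5).

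Genes that female liver expresses more than male liver rose in 9 of 12 with 0 lower, at a median of 1.34, and 4 rose without KO_chow replicates 2 and 5. The list shares Sult2a1 and Sult3a1 with the sulfotransferases and Hao2 and Acot3 with fatty acid oxidation. Hao2, a peroxisomal oxidase of hydroxy acids, measured 5.86, 4.43, 6.41, 6.43 and 5.51 in KO_chow and 7.22 to 9.04 (median 7.31) in KO_UDCA, a 3.73-fold rise in which KO_UDCA replicate 4 stood far above its group. Cyp17a1, the 17-alpha-hydroxylase of steroid synthesis, measured 8.85, 8.71, 9.58, 8.26 and 9.44 in KO_chow and 10.2 to 10.8 (median 10.7) in KO_UDCA, a 3.09-fold rise (limma adjusted p = 1.88e-06). Male-biased genes passed in 1 of 11 in each direction, Slco1a1 higher and C6 lower, of which C6 also passed without KO_chow replicates 2 and 5.

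Lepr, the leptin receptor, had the largest rise among genes whose groups did not overlap. It measured 6.62, 6.26, 7.01, 6.63 and 6.35 in KO_chow and 7.70 to 9.20 (median 8.44) in KO_UDCA, a 3.75-fold rise (limma adjusted p = 1.26e-05). The wild-type mice lay between 6.68 and 7.94 on chow and between 7.74 and 8.48 on UDCA, so that some UDCA-fed knockouts were above every wild-type mouse, though the difference of 1.06 from WT_chow was not called (adjusted p = 0.204). Igfbp3, which carries insulin-like growth factors, rose 1.76-fold. Of 18 genes of growth hormone and leptin signalling 3 rose and 2 fell (2 and 1 without KO_chow replicates 2 and 5).

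Of 21 lipid synthesis genes 5 rose and 2 fell (2 and 2 without KO_chow replicates 2 and 5). Acacb, the carboxylase that makes the malonyl-CoA of mitochondria, rose 1.63-fold, while Elovl7, an elongase of long fatty acids, measured 5.80, 7.99, 6.16, 5.70 and 7.38 in KO_chow and 4.00 to 4.63 in KO_UDCA and fell 4.86-fold. Lpl, the lipase that frees fatty acids from lipoproteins, fell 3.55-fold. Its KO_UDCA values ran from 5.35 to 7.93 with replicate 4 the highest, and its adjusted p was 0.0566 without KO_chow replicates 2 and 5. Ptgds, the prostaglandin D synthase, measured 9.38, 8.21, 8.14, 8.37 and 8.46 in KO_chow and 5.50 to 6.61 (median 5.82) in KO_UDCA, a 6.06-fold fall (limma adjusted p = 1.38e-08).

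The remaining metabolic lists had few calls without KO_chow replicates 2 and 5. Xenobiotic metabolism genes rose in 5 of 19 and fell in 0, and of 16 glycolysis genes 1 rose and 4 fell, with Pkm, the pyruvate kinase of non-hepatocyte tissues, 1.53-fold lower (adjusted p = 0.228 without these mice). Cholesterol synthesis genes passed in 1 of 17, lower, at a median of -0.01 that turned to 0.01 with centred arrays. Pericentral genes rose in 1 of 13, and of 11 periportal genes 2 rose and 1 fell. Asl, a urea cycle enzyme on the periportal list, rose 1.60-fold. Clock genes rose in 2 of 16. Rgs16, a regulator of G protein signalling on that list, rose 2.68-fold (adjusted p = 0.0789 without KO_chow replicates 2 and 5). Iron genes rose in 2 of 18 and apolipoprotein genes passed in 2 higher and 1 lower of 16. In either direction 11.2% of all genes were called, and 22.2% of the 6003 brightest. The counts of the cholesterol synthesis, pericentral, clock and iron lists were near or below the share over all genes. Without KO_chow replicates 2 and 5 the periportal list kept a count of 1 higher and 1 lower, and each of the other lists of this paragraph had 0 calls.

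Among cells that a liver piece may carry along, erythroid genes passed in 0 of 4 and pancreas genes in 0 of 5. Mesothelial genes fell in 2 of 7 and rose in 0, with the same counts without KO_chow replicates 2 and 5 and a median of -0.14. They were Krt19, which also marks bile ducts, and the membrane glycoprotein gene Gpm6a (1.31-fold, adjusted p = 0.0408 with all mice and 0.0199 without these). The groups overlapped for Gpm6a, and its call was lost on leaving out any 1 of KO_chow replicates 1, 2 and 4 or any 1 KO_UDCA mouse (adjusted p up to 0.118), in the fit to only the knockout arrays (0.151) and with centred arrays (0.0593). A value above 0 does not show that a marker is expressed, since the lowest intensity of any gene on any array was 1.66. The mean of the hepatocyte list, as a difference from the WT_chow mean, lay between -0.04 and 0.08 in KO_chow and between -0.06 and 0.13 in KO_UDCA.

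**Figure D3:**
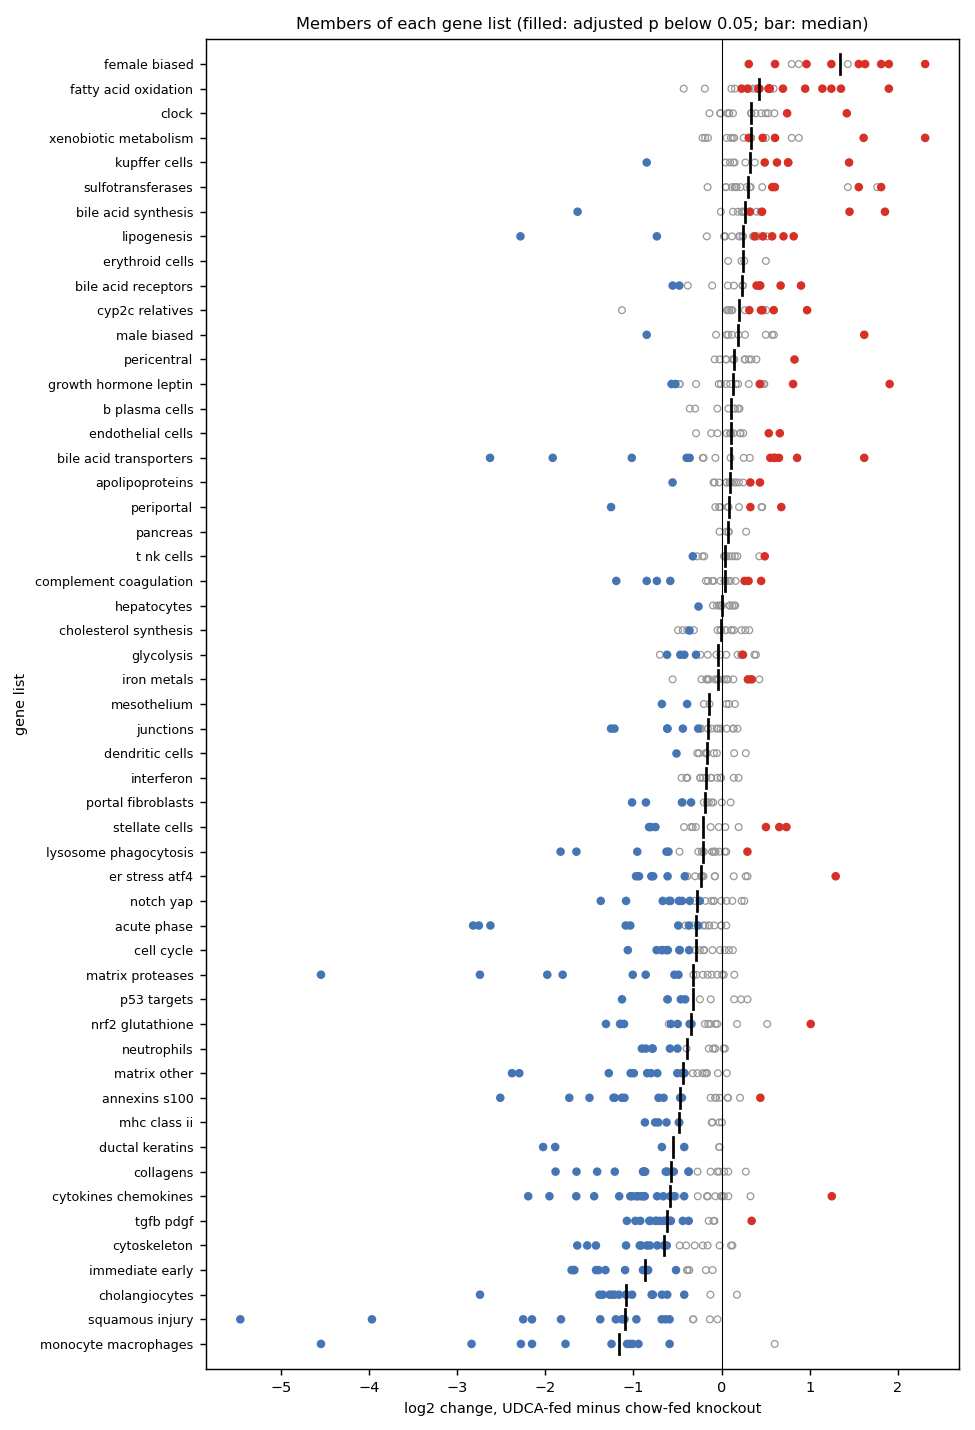
Each row is a gene list and each point is 1 of its measured genes, placed by the log2 change from chow to UDCA in the knockout, with calls at an adjusted p below 0.05 filled (red higher, blue lower) and the list median as a bar. Medians run from -1.16 for monocyte-derived macrophage markers to 1.34 for female-biased genes, and most points of the cholangiocyte, squamous and macrophage lists are blue.

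Across mice, the means of the cholangiocyte, collagen and monocyte-derived macrophage lists kept the 2 diets apart in every animal. This was not particular to them. The squamous and injury, matrix protease, MHC class II, acute phase and cell cycle lists, among others, were apart as well. The stellate cell list overlapped. The cell junction list overlapped only narrowly, with a lowest KO_chow mean of 0.160 and a highest KO_UDCA mean of 0.162. The mean of the cholangiocyte list, as a difference from the WT_chow mean, lay between 0.93 and 1.54 in KO_chow and between 0.05 and 0.44 in KO_UDCA. The corresponding ranges for the collagen list were 0.63 to 0.90 and -0.02 to 0.37. For monocyte-derived macrophages the ranges were 1.11 to 2.64 and 0.06 to 0.35. The female-biased list lay lower on chow, from -2.33 to -0.85, than on UDCA, from -0.68 to -0.32, again with no overlap. The Kupffer cell ranges nearly touched, from -0.49 to -0.28 on chow and from -0.27 to 0.44 on UDCA.

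**Figure D4:**
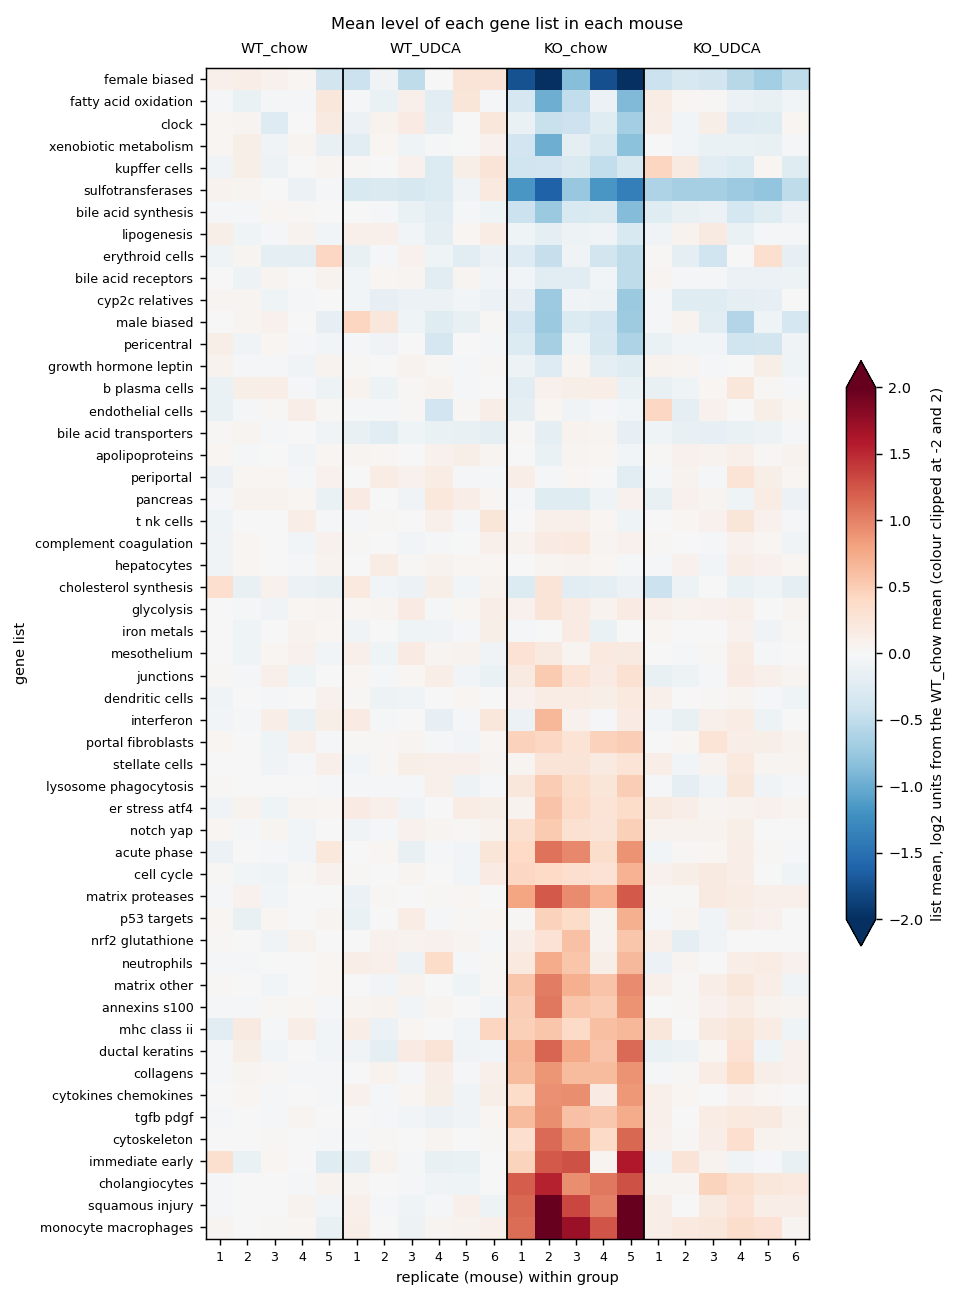
Each cell is the mean over the genes of a list (rows) in a mouse (columns, grouped as WT_chow, WT_UDCA, KO_chow and KO_UDCA), in log2 units from the WT_chow mean. KO_chow replicates 2 and 5 have the strongest colours in many lists, such as 2.64 and 2.18 for monocyte-derived macrophages, while the KO_UDCA columns lie between 0.06 and 0.35 there.

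A small set of genes was called against untreated wild type after UDCA, and genes outside it can differ as well. Besides Cyp2c70, the genes called between KO_UDCA and WT_chow were Sult2a1, Elovl3, Tafa2, Pls1 and Mrc2, and all but Sult2a1 were chosen for mention after their values were seen. Sult2a1 was 8.92-fold lower than in WT_chow (adjusted p = 0.000167), where the mice lay between 7.29 and 8.26, although it was higher on UDCA than in most chow-fed knockouts. Elovl3, an elongase of very long fatty acids, measured 3.81, 3.17, 4.46, 3.77 and 3.47 in KO_chow and 3.55 to 4.11 in KO_UDCA, so that UDCA gave a change of 0.12 (SE 0.26, adjusted p = 0.846). It was 3.90-fold below WT_chow (adjusted p = 0.00091).

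Tafa2, a small secreted protein of the nervous system, was 1.67-fold below WT_chow, and its diet change of 0.18 (SE 0.12) was not called (adjusted p = 0.384). Pls1, an actin-bundling protein of microvilli, measured 5.37, 5.64, 5.62, 5.48 and 5.33 in KO_chow and 4.49 to 4.93 in KO_UDCA. It fell 1.60-fold, to 1.53-fold below WT_chow, and the wild-type mice on UDCA, at 4.88 to 5.13, lay below those on chow, at 5.20 to 5.76 (a change of -0.44, adjusted p = 0.461). Mrc2, a collagen uptake receptor of fibroblasts, fell 1.33-fold to between 5.22 and 5.46, still 1.49-fold above WT_chow (adjusted p = 0.0106). The fall of Mrc2 had an adjusted p of 0.109 without KO_chow replicates 2 and 5. The list of 6 depends on the setting, with 3 to 10 genes when single mice were left out. Some list means also lay apart from WT_chow in KO_UDCA. Sulfotransferases ranged from -0.79 to -0.50 in KO_UDCA against -0.11 to 0.075 in WT_chow. Bile acid synthesis genes ranged from -0.34 to -0.12 against -0.04 to 0.04. In WT_UDCA mice, on the same diet, the sulfotransferase list ranged from -0.325 to 0.189, apart from KO_UDCA. Their bile acid synthesis list ranged from -0.213 to -0.005 and overlapped KO_UDCA, so that diet and genotype are mixed in its difference from WT_chow. The cholangiocyte list, at 0.05 to 0.44 against -0.05 to 0.07, overlapped.

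**Figure D5:**
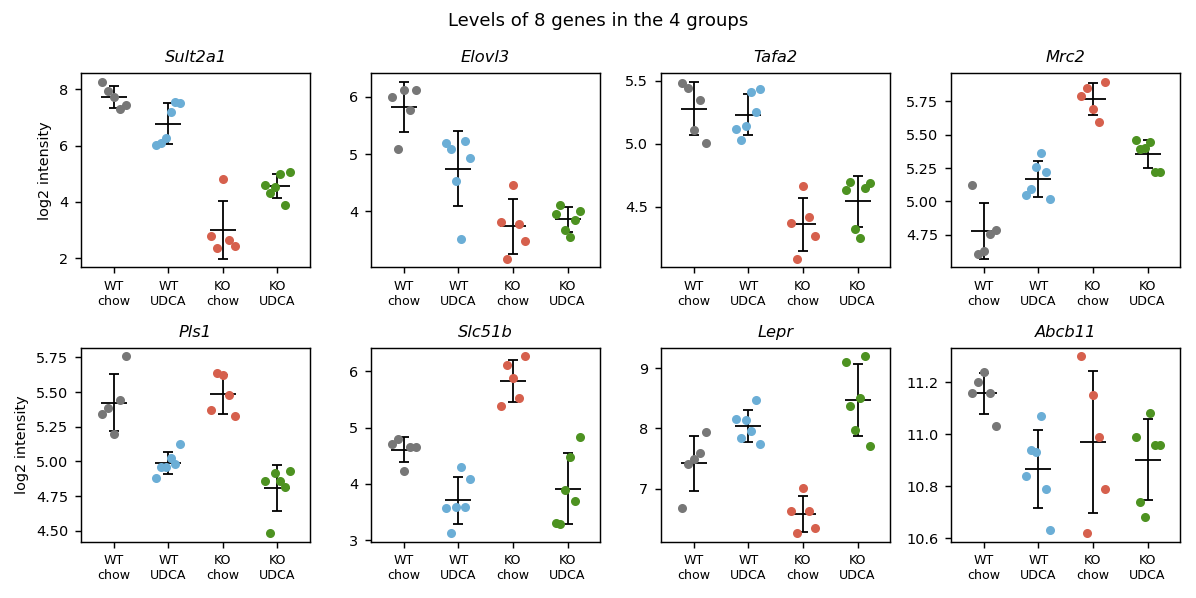
The log2 intensity of 8 genes is shown for each mouse (points) in the 4 groups, with the group mean and SD (horizontal line and bars). Sult2a1, Elovl3 and Tafa2 remain below WT_chow in KO_UDCA (for Elovl3 at most 4.11 against at least 5.08), Pls1 lies at 5.13 or less in all UDCA-fed mice, Lepr is higher in UDCA-fed knockouts than in chow-fed ones, and Abcb11 overlaps between the knockout groups.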

How the data were processed

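Liver RNA of 22 mice was measured on 1 array each. The deposited table holds linear intensity values that the authors obtained by RMA and a probe-level model, per the labels. RMA normalizes between arrays, which can hide a shift of all genes. The sources used here give no RMA version or genome build. Of 24973 rows, 24015 have 1 symbol in the platform annotation and 958 have none. RefSeq identifiers matched 23922 of the rows with a symbol, and the brightest row was kept for 4 repeated symbols, leaving 24011 genes. Array medians lay between 28.7 and 31.1. Precision is limited by the number of arrays.

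Intensities were taken to log2 without offset or filter. All 22 arrays entered 1 linear model with 4 group means in limma 3.58.1 (R 4.3.3, with data.table at 1.17.8). The model was tested on simulated data with the same SD in all groups, so that the larger spread of KO_chow was not covered. P-values are two-sided with Benjamini-Hochberg adjustment over all genes, and genes are called below 0.05. Errors are too small where KO_chow spreads more than the shared variance. The labels name no batch, and replicates were numbered in record order.

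The 53 lists (811 different genes, 53 not matched) and the members were chosen with earlier results of these data known. Genes were named by rule: Cyp2c70 and relatives, the 16 largest falls and 16 largest rises without overlap, up to 4 called members of each list (or the one with the smallest p), and 10 fixed genes. Predicted genes, small RNA genes, olfactory and vomeronasal receptors and receptor segments of lymphocytes were left out of the largest changes. Further parts of the rule, for called genes with KO_UDCA beyond all wild-type arrays and for genes called in wild type, named none. The text gives values for genes from a set of 97, of which Elovl3, Tafa2, Mrc2, Pls1, Fosl2, Jun and Junb lie outside the rule. Alternatives were leaving out each mouse, leaving out KO_chow replicates 2 and 5, fitting only the compared groups, a filter on dim genes (log2 of at least 5 in at least 5 arrays), centred arrays, quantile normalization, an offset of 16, an intensity trend with robust variances, and group weights.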

Additional observations from a re-analysis of the deposited data

Results flagged for a closer look

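Some single mice lay far from the rest of their group in genes named above. Of 194 groups tested for such a mouse (97 genes in KO_chow and in KO_UDCA) 13 had one, and chance gives about 1 in 20. KO_UDCA replicate 4 was the highest of its group in Saa1 (7.71), Saa2 (7.51), Hao2 (9.04) and Lpl (7.93), where the others reached at most 7.09, 6.81, 7.63 and 6.14, and the lowest in Cxcl14 (5.21). KO_UDCA replicate 3 was the highest in Krt7 (5.35) and Fosl1 (4.47). KO_UDCA replicate 2 was the lowest in Cd24a (5.44) and Pls1 (4.49) and the highest in Ch25h (4.02). KO_chow replicate 3 was the lowest of its group in Cd24a (6.56) and the highest in Sult2a1 (4.82), and KO_chow replicate 1 was the highest in Ptgds (9.38).

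For 64 of the 97 named genes the effect of UDCA differed between knockout and wild type by the interaction test in limma (adjusted p below 0.05). Over all genes the test called 642 (2.67%). Most of the named genes were chosen by the size of their change on UDCA in the knockout. That change is part of the interaction, so a larger share among the named genes was built in. The test used all mice, and without KO_chow replicates 2 and 5 together it called 207 genes in place of 642 over all genes. The values below are the log2 change in the knockout minus that in wild type. Among epithelial genes they were -5.81 for Sprr1a, -3.95 for Ly6d, -2.17 for Emp1, -2.64 for Anxa2, -2.68 for Tspan8, -1.46 for Muc1 and -1.28 for Cd24a. For keratins and junctions they were -2.03 for Krt8, -1.80 for Krt18, -0.69 for Krt19 and -1.48 for Cdh1, and for YAP targets -1.17 for Ankrd1 and -1.04 for Ccn2. For all of these genes the effect of UDCA was more negative in the knockout. Such a value can include a rise in wild type, as for Sprr1a and Ccn2.

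Matrix genes had values of -4.58 for Mmp12, -2.82 for Mmp13, -1.61 for Mmp7, -2.23 for Timp1, -1.95 for Col1a1, -1.59 for Col3a1, -1.59 for Col6a3, -2.26 for Tnc, -2.18 for Thbs1, -0.77 for Itgb8 and -0.79 for Mrc2. Stellate cell and portal fibroblast markers had -0.88 for Cygb, -0.65 for Hgf, -0.97 for Dpt and -0.95 for Cd34, with 0.75 for Colec10 in the other direction.

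Macrophage genes had values of -2.87 for Gpnmb, -2.28 for Cd14 and -2.03 for Lgals3, against 1.26 for Cd163 and 0.82 for Timd4, and H2-Aa had -1.05. Chemokine and acute phase genes had -2.22 for Ccl2, -1.91 for Cxcl14, -1.40 for Cxcl1, -3.01 for Saa1, -2.94 for Saa2 and -2.51 for Lcn2, against 1.28 for Cxcl13. Stress and growth genes had -1.99 for Ier3, -1.65 for Klf6, -0.92 for Fosl2, -1.09 for Gclc, -0.99 for Creld2, -1.14 for Mcm6 and -1.61 for Tagln2.

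Bile acid genes had values of 2.01 for Cyp8b1, 0.58 for Slc10a1, -2.12 for Slc10a2, 2.51 for Sult2a1, 1.89 for Sult3a1 and 1.01 for Cyp2c69. Metabolic genes had 1.28 for Lepr, 1.61 for Cyp17a1, 1.53 for Eci3, 1.43 for Acot3 and 0.56 for Asl, against -2.44 for Elovl7, -1.08 for Pkm, -2.03 for Lpl and -1.76 for Ptgds.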

How the results depend on the processing

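Of 88 called genes named in the text, 69 kept their call under every alternative and 84 under every single mouse left out, and 0 turned direction. Without KO_chow replicates 2 and 5 together 16 lost it, and in the fit to only the compared groups 7 did. Leaving out single mice gave 1632 to 3201 genes for UDCA in the knockout, 0 to 1 in wild type, 301 to 1219 for the interaction, 3 to 10 for KO_UDCA against WT_chow and 2219 to 3849 for KO_chow against WT_chow. Without KO_chow replicates 2 and 5 together the knockout count was 673, the interaction count 207 and the count for KO_chow against WT_chow 1089. The share of rises among calls in the knockout was then 25.3%, against 44.7% with all mice. The fit to only the compared groups gave 1454 for UDCA in the knockout, 1 in wild type and 2008 for KO_chow against WT_chow. KO_UDCA against WT_chow gave 10 genes with the filter on dim genes, 10 with an intensity trend and robust variances and 11 with group weights.

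Values that turned direction were small ones that no setting called. Abcb11 ran from -0.157 to 0.013 over single mice left out, the latter without KO_chow replicate 1. Elovl3 ran from -0.024 (without KO_chow replicate 2) to 0.299 and was at -0.16 without replicates 2 and 5 together. Alb, at -0.0044 with all mice, ran from -0.016 to 0.0047 over single mice left out and was at 0.011 with centred arrays. The interaction has no fit to only the compared groups, since it uses all 4 groups. Array scaling moved the median change of all genes from 0.033 to 0.048 with centred arrays and to 0.020 with quantile normalization. The cause of these differences was not tested. No paired analysis was possible because the labels number the samples through the whole series and the groups share no replicate number. Dim genes limit the sizes of changes, as for Sult2a1.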
